A study of Mus musculus with 6 samples.

Results

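The SLC25 family holds most of the carrier proteins of the inner mitochondrial membrane, and its mouse genes carry symbols that start with Slc25a. All genes with such a symbol were taken as members, whatever their signal: 47 of the 20145 genes named on the array had a probe, and 37 of them gave enough signal to be tested. They were compared in heart ventricles of 3 Tead1 icKO mice and 3 control mice. The icKO mice were Tead1F/F; Myh6-CreER and had received tamoxifen, so that Cre, driven by a promoter of cardiomyocytes, removes the transcription factor Tead1 from these cells in the adult. The controls were Tead1 flox mice, also given tamoxifen, with no Cre named in their labels, so loss of Tead1 and presence of an active Cre cannot be told apart. Both groups were C57bl/6j males of 11 to 12 weeks, and the study asked what Tead1 does in adult cardiomyocytes. Nothing in the labels says how long after tamoxifen the hearts were taken.

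SLC25 carriers share a fold of repeated pairs of membrane helices and mostly exchange a solute of the cytosol for one of the matrix. In the heart, which makes nearly all of its ATP in mitochondria, they export ATP for ADP, bring in the phosphate for ATP synthesis, admit fatty acids as acylcarnitines, move the reducing power of cytosolic NADH through the malate-aspartate shuttle, and deliver the cofactors on which matrix enzymes depend. Several come as a pair of close relatives, such as Slc25a4, the form of heart and muscle, and Slc25a5, the form of many tissues.

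Values below are log2 signals less the array's own 75th percentile, so that 0 is that percentile, and differences are icKO minus control on the log2 scale with the standard error (SE) of the limma fit. Adjusted p-values are Benjamini-Hochberg values over all 22278 features tested, with a threshold of 0.05. The labels call the arrays biological replicates. All 6 lay on 1 slide, icKO arrays in slide columns 2, 3 and 3 and control arrays in columns 1, 1 and 2, so position along the slide and group can hardly be told apart. The 75th percentile signal before scaling was between 292 and 348 on icKO arrays and between 189 and 233 on control arrays, and between 47.7% and 50.9% of probes were well above background. Of 3 Tead1 probes, 2 were lower in icKO ventricles, with differences of -0.43 and -0.40. The sources used here do not say which exon was floxed, so these signals are no check of the genotype.

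Most SLC25 carriers that changed were lower in Tead1 icKO ventricles. Of the 37 tested, 14 fell, which is 37.8%, where 28.7% of all features tested were called lower. Only 4 rose (Slc25a1, Slc25a14, Slc25a24 and Slc25a45), which is 10.8%, where 16% of all features were called higher. Among the 12974 named genes tested, 27.9% were lower and 20.3% higher. The other 19 did not pass the test. The median difference was -0.35 over the carriers tested and -0.14 over all features tested. On 20 carriers every icKO array with a value lay below every control array, and on 6 every icKO array lay above. The same held for 37.7% and 21.6% of all features. Among the 20, Slc25a47 had no value for icKO replicate 1, whose spot had an outlier flag and ranked above the spots of the control arrays. Slc25a22 and Slc25a47 passed the filter only through the controls, so their place among the 20 is a description. The same holds for Slc25a22 among the 14 that fell.

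How many carriers fell depends on how arrays are put on a common scale. Scaling by the median signal adds 0.16 to every log2 difference over all 6 arrays, and scaling by the spike-in probes adds 0.44. With median scaling 10 carriers were lower and 7 higher, beside 16.4% of all features lower and 19.7% higher. With spike-in scaling 6 were lower and 10 higher, beside 7.49% of all features lower and 32.2% higher. Slc25a30, among these 10, passed the filter only through the icKO arrays, so its place there is a description. The 6 called lower under all of these scalings included Slc25a11, Slc25a20, Slc25a22, Slc25a26 and Slc25a42, and the 4 called higher under the 75th percentile were called higher under the others too. Slc25a22 passed the filter only through the controls and could only be called lower, so its place among the 6 is a description. Quantile normalization gave 11 lower and 4 higher, beside 23.8% and 18.3% of all features. Differences between carriers within an array do not move with a scaling by 1 factor per array.

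**Figure D1:**
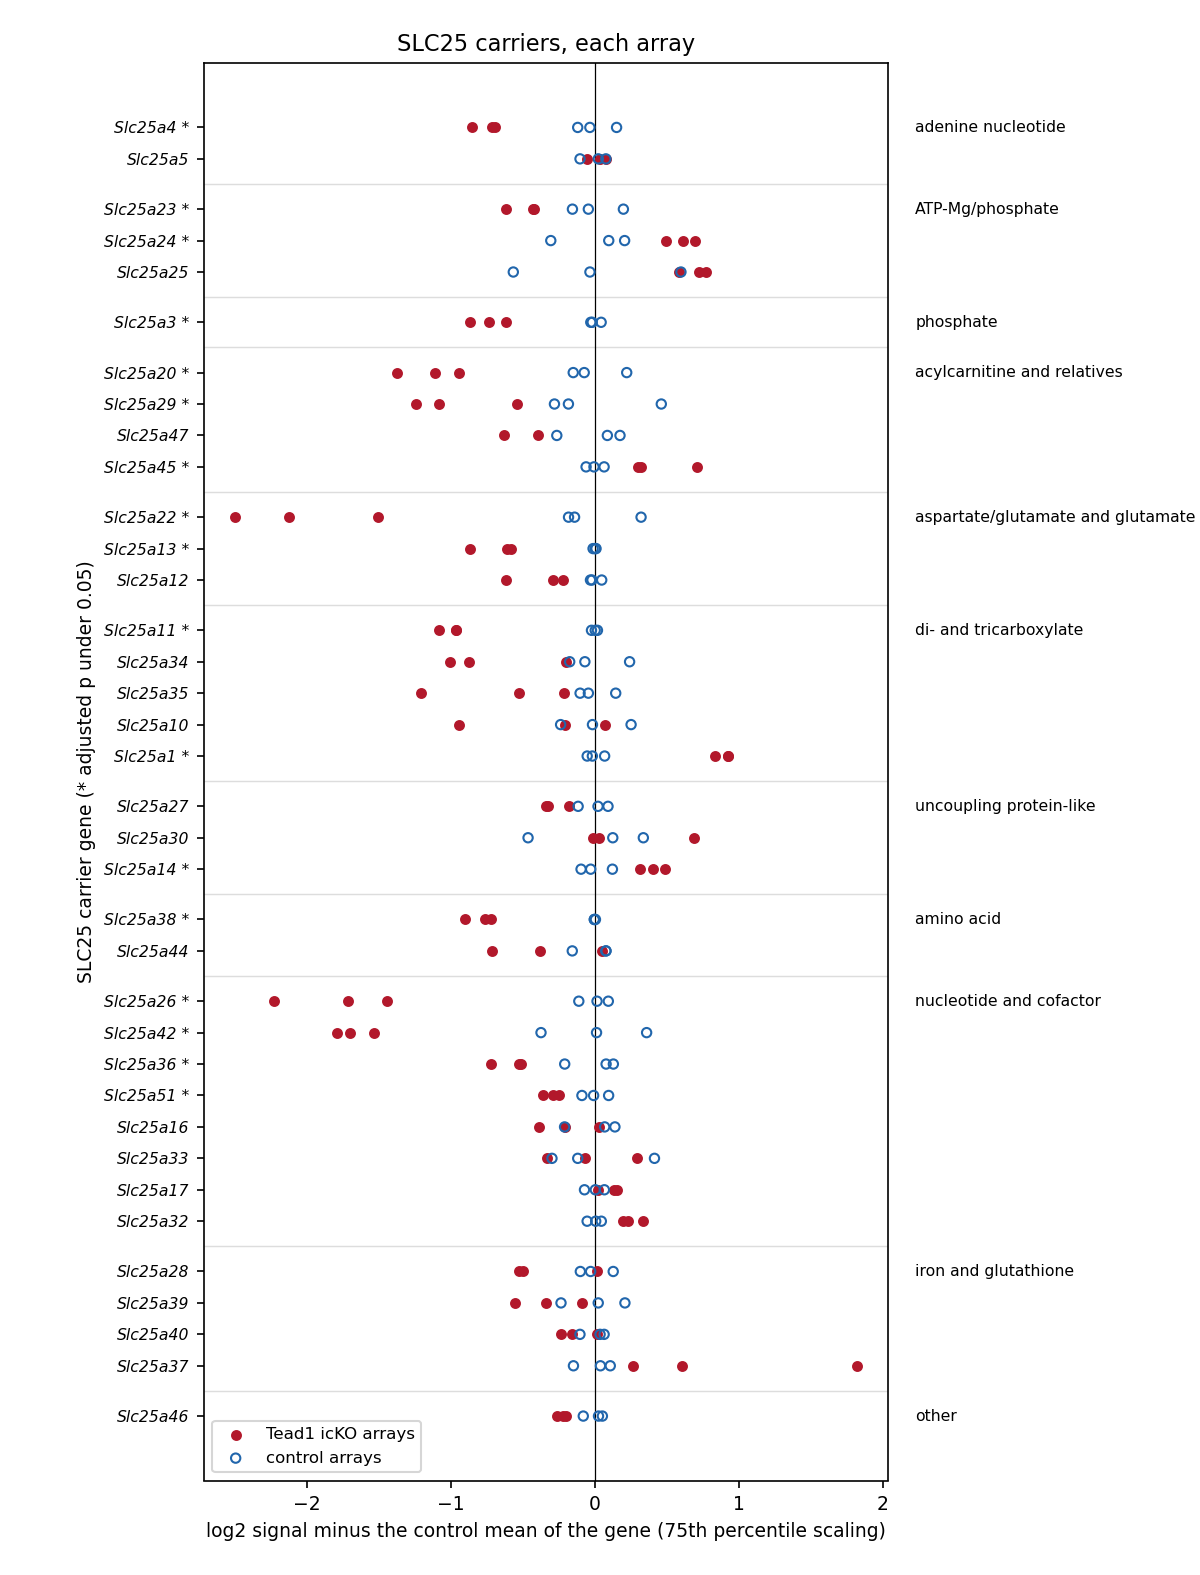
Log2 signal of 36 SLC25 carriers on each of the 6 arrays, given as log2 signal less the carrier's control mean, with filled points for the 3 icKO arrays and open points for the 3 control arrays. Rows are grouped by role, an asterisk marks the 13 plotted carriers that fell and the 4 that rose, and of the carriers well above background in both groups Slc25a26 lies lowest (mean -1.80). The icKO points of Slc25a22 are signals near background.

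Cell type markers moved between the groups as well. Of 10 cardiomyocyte markers 8 were lower in icKO ventricles, where 28.7% of all features were lower and 16% higher. The mean log2 signal of the 10 was 7.99 to 8.10 on icKO arrays and 8.55 to 8.68 on control arrays. Of 10 fibroblast markers 7 were higher and 1 lower, with a mean of 3.66 ± 0.16 in icKO and 2.46 ± 0.40 in control ventricles (SD, n = 3 each). They ran from -1.97 for Scara5, the marker called lower, to 4.49 for Postn, and Tcf21 (0.69) and Dpt (-0.015) did not pass. Of 9 macrophage markers measured 8 were higher, with a mean of 3.57 ± 0.20 in icKO and 2.03 ± 0.33 in control ventricles. Of 8 endothelial markers 3 were lower and 1 higher, with means of 2.57 ± 0.19 in icKO and 2.62 ± 0.13 in control ventricles. Their differences ran from -0.65 for Kdr to 2.14 for Vwf, the marker called higher, with a median of -0.30. Of 8 smooth muscle and pericyte markers 1 was lower and 2 higher, with means of 2.56 ± 0.18 and 2.41 ± 0.21. With spike-in scaling 2 of the 10 cardiomyocyte markers remained called lower, where 7.49% of all features were lower. In RNA from whole ventricle, fewer cells of a type and less RNA per cell cannot be told apart, and the part of these shifts in the carriers' values was not tested.

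The adenine nucleotide carriers exchange matrix ATP for cytosolic ADP, and Slc25a4 (Ant1), the form of heart and muscle, fell, whereas Slc25a5 (Ant2), the form of many tissues, did not pass the test. Slc25a4 had log2 signals of 10.11, 9.95 and 10.09 in icKO ventricles, against 10.96, 10.69 and 10.77 in control ventricles. The groups did not overlap, and Slc25a4 averaged 10.05 ± 0.09 in icKO and 10.80 ± 0.14 in control ventricles (SD, n = 3 each), a difference of -0.75 ± 0.11 (SE) or 0.594 of the control level, with an adjusted p of 0.00301. Slc25a5 had 4.43, 4.52 and 4.56 in icKO ventricles and 4.51, 4.38 and 4.56 in controls, which overlap. Its difference was 0.021 ± 0.10 (adjusted p = 0.878).

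Within each array Slc25a4 exceeded Slc25a5 by 5.68, 5.43 and 5.52 in icKO ventricles and by 6.45, 6.30 and 6.21 in controls. This gap, of which only the change is read since probes differ in brightness, was smaller on all 3 icKO arrays and changed by -0.77 ± 0.10 (SE). The exact two-sided permutation test gave p = 0.1, the smallest p that 3 against 3 arrays allow, and 0.2 after adjustment over the 6 pairs compared in this way. The size of the Slc25a4 change rests on the scaling: it was -0.31 with spike-in scaling (adjusted p = 0.129) and -0.085 with quantile normalization (adjusted p = 0.417), where the change of the gap was -0.19. The authors' deposited value table gave -0.084 for Slc25a4 (adjusted p = 0.422). Spots of Slc25a4 ranked 16, 16 and 20 from the brightest on icKO arrays and 7, 14 and 7 on control arrays among 59305 spots. Quantile normalization gives spots of like rank a like value, and the part of this in the Slc25a4 value was not tested. With spike-in scaling Slc25a5 was called higher, at 0.46 (adjusted p = 0.0373). The array carries 10 spots of the Slc25a4 probe, whose mean is used. Whether probes also bind close relatives in the family was not checked. The third adenine nucleotide carrier, Slc25a31, known from the male germ line, stayed near background on all 6 arrays and was not tested.

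**Figure D2:**
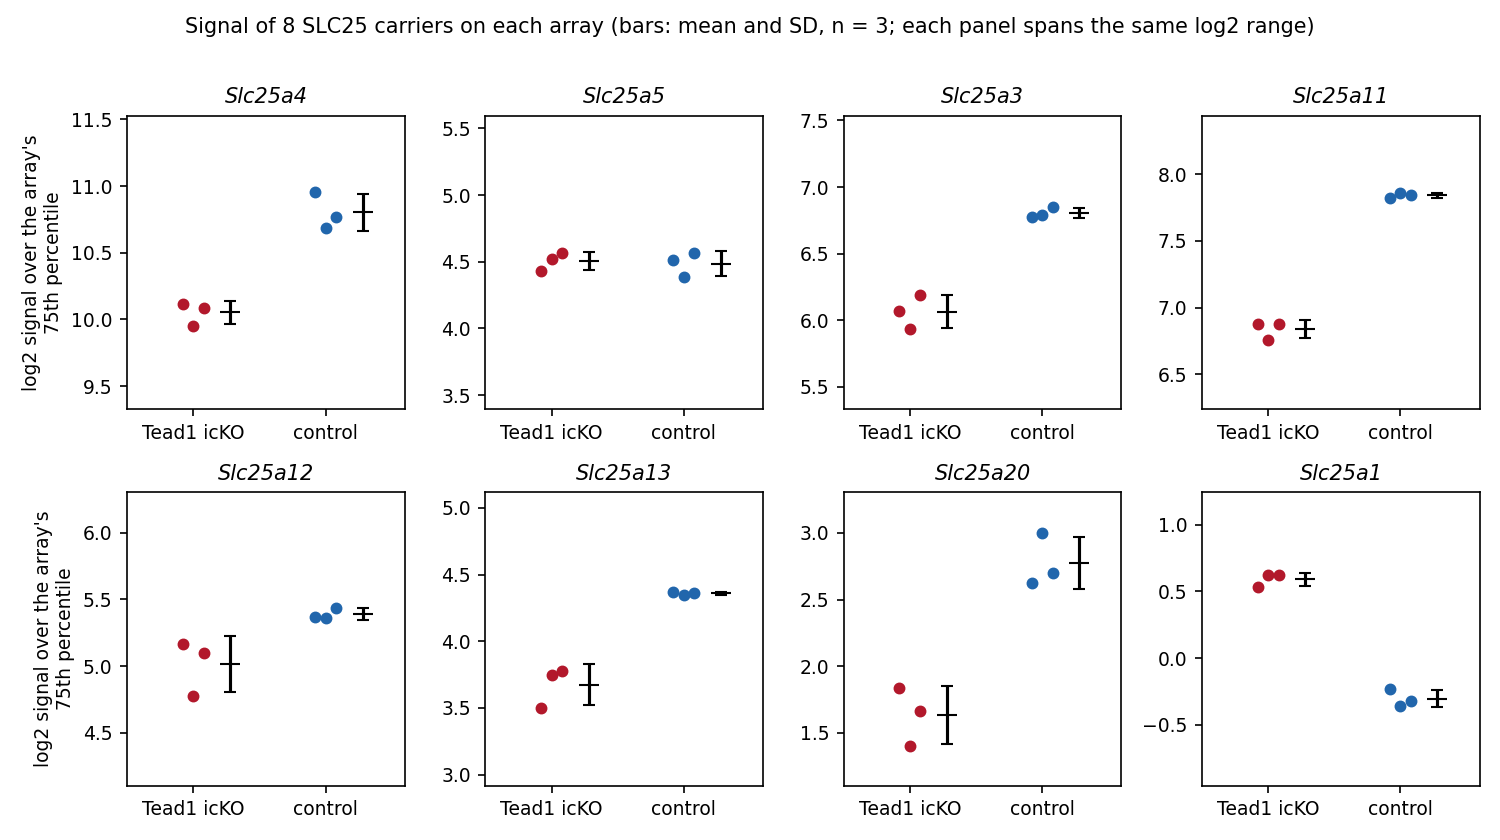
Log2 signals relative to the array's 75th percentile of 8 carriers, 1 point per array with icKO left of control and bars for the mean and SD (n = 3), on axes that differ in level and span the same range. Slc25a4, Slc25a3, Slc25a11, Slc25a12, Slc25a13 and Slc25a20 have all icKO arrays below all control arrays, Slc25a1 has them above, and Slc25a5 overlaps.

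Because Tead1 is a DNA-binding factor, the 250 bases before the start site are shown for both main adenine nucleotide carriers, for the acylcarnitine carrier Slc25a20, which fell, and for Slc25a24, which rose. They are RefSeq sequences on the strand of the gene, build GRCm38.p6, at chr8:46211063-46211312 (minus strand) for Slc25a4, chrX:36795347-36795596 (plus) for Slc25a5, chr9:108661886-108662135 (plus) for Slc25a20 and chr3:109122899-109123148 (plus) for Slc25a24. Capitals mark the core TEAD motif GGAATG, or CATTCC where it lies on the other strand.
Slc25a4: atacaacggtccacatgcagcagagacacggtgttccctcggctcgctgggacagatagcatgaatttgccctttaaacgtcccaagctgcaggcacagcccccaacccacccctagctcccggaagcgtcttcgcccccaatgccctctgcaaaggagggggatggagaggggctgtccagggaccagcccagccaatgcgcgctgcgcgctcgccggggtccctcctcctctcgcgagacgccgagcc
Slc25a5: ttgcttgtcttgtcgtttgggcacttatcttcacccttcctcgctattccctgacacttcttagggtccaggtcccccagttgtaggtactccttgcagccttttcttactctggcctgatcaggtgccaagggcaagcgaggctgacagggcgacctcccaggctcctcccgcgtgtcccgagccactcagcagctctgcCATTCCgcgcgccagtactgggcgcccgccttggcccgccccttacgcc
Slc25a20: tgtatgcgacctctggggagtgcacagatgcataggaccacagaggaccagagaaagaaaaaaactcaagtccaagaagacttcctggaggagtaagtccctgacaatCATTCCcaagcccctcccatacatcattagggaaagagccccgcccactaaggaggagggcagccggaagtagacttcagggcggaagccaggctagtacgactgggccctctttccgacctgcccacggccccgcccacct
Slc25a24: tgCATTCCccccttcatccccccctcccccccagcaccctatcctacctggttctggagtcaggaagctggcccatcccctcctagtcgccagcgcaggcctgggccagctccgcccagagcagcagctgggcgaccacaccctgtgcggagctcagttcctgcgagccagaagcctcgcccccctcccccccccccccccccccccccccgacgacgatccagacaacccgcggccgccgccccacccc
The window of Slc25a4 holds no match, and the match begins 49 bases before the start in Slc25a5, 142 in Slc25a20 and 248 in Slc25a24. The windows shown are examples and no sample of the family, where 7 of 36 carriers had a match (next paragraph).

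Over the whole family, 36 of 47 carriers had a RefSeq promoter window of 250 bases before to 50 bases after a start site. GGAATG on either strand was found in 7 of the 36 (19.4%), against 16.6% of all 27025 genes with a window. Matches lay in 3 of the 11 carriers that fell (Slc25a20, Slc25a23 and Slc25a36), in 1 of the 4 that rose (Slc25a24) and in 3 of the 13 that did not pass (Slc25a5, Slc25a16 and Slc25a25). The nuclear receptor motif AAGGTCA was found in 1 of the 36 (Slc25a34), against 5.38% of all genes. Its longer form TNAAGGTCA, the ERR motif, which contains it, was found in none, against 1.43%. The NRF1 palindrome was found in 2, as GCGCCTGCGC in both Slc25a3 and Slc25a31, against 5.19%. A match in these letters is a description of the window and no evidence of binding.

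Slc25a3, which imports the phosphate that ATP synthase joins to ADP, fell as well. It had 6.07, 5.94 and 6.19 in icKO ventricles, against 6.78, 6.79 and 6.85 in controls, with no overlap. It averaged 6.07 ± 0.13 in icKO and 6.80 ± 0.04 in control ventricles (SD, n = 3 each), a difference of -0.74 ± 0.10 (SE, adjusted p = 0.00236). A second probe of Slc25a3 gave 3.23, 3.41 and 3.46 in icKO ventricles and 4.36, 4.46 and 4.49 in controls, a difference of -1.07 ± 0.10. With spike-in scaling the first probe gave -0.30 (adjusted p = 0.199).

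The acylcarnitine carrier Slc25a20 (CAC), through which long-chain fatty acids reach the matrix for oxidation, had 1.83, 1.40 and 1.67 in icKO ventricles, against 2.63, 2.9965 and 2.70 in controls. All icKO arrays lay below all control arrays. Slc25a20 averaged 1.63 ± 0.22 in icKO and 2.77 ± 0.20 in control ventricles (SD, n = 3 each), a difference of -1.14 ± 0.16 (SE), 0.454 of the control level (adjusted p = 0.00238), and it was called lower under every scaling. Its relative Slc25a29, a carrier of basic amino acids, had 0.12, 0.28 and 0.83 in icKO ventricles and 1.09, 1.18 and 1.83 in controls. The groups did not overlap, and Slc25a29 fell by 0.96 ± 0.26 on the log2 scale (SE, adjusted p = 0.0266), a call lost on leaving out icKO replicate 1 or 2 or control replicate 3 (adjusted p = 0.0606 to 0.0737), with slide row as a block (0.0548), with no filter on dim probes (0.089) and with median (0.0567) or spike-in scaling (0.167). The gap between Slc25a20 and Slc25a29 changed by -0.18 ± 0.38 (SE, exact permutation p = 0.7), within the spread of the arrays.

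Slc25a45, another relative by sequence, rose. It had -1.02, -0.63 and -1.04 in icKO ventricles and -1.40, -1.27 and -1.34 in controls, which do not overlap, a difference of 0.44 ± 0.14 (SE, adjusted p = 0.0393). The call was lost without icKO replicate 2 and without any 1 of the control replicates (adjusted p = 0.0715 to 0.102), with normexp background correction (0.22, adjusted p = 0.101), with trended and robust eBayes (0.0508) and with no filter on dim probes (0.138). Slc25a47, known from liver, did not pass, at -0.51 ± 0.17 (SE, adjusted p = 0.0622), with icKO replicate 1 dropped from its fit because the spot had an outlier flag. That flagged spot ranked 11028 from the brightest, above the spots of the control arrays (15162, 13901 and 13628). Slc25a48 stayed near background on all 6 arrays.

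The aspartate/glutamate carriers Slc25a12 (aralar) and Slc25a13 (citrin) export aspartate in the malate-aspartate shuttle, and Slc25a13 fell. It had 3.50, 3.75 and 3.78 in icKO ventricles, against 4.37, 4.35 and 4.36 in controls. The control arrays lay within a narrow band above all icKO arrays, and the difference was -0.68 ± 0.11 (SE), 0.623 of the control level (adjusted p = 0.00398), but -0.24 under spike-in scaling (adjusted p = 0.272). Slc25a12, the form of heart and brain, had 5.17, 4.78 and 5.10 in icKO ventricles and 5.37, 5.36 and 5.44 in controls. Though the groups do not overlap, its difference of -0.38 ± 0.13 (SE) did not pass, with an adjusted p of 0.0522, and it passed without icKO replicate 1 (adjusted p = 0.0411), with slide row as a block (0.048), with array weights (0.0297), with trended and robust eBayes (0.0203) and among probes above background on all 6 arrays (0.0449). With spike-in scaling its difference was 0.068. The gap between Slc25a12 and Slc25a13 changed by 0.31 ± 0.19 (SE, exact permutation p = 0.2).

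The glutamate carrier Slc25a22 gave -4.26, -4.88 and -5.25 in icKO ventricles, where no array had it well above background, against -2.93, -2.43 and -2.89 in controls. Its measured means were -4.79 in icKO and -2.75 in control ventricles, so only a bound can be given: Slc25a22 was at least 1.99-fold lower in icKO ventricles, or at least 1.46-fold with spike-in scaling. Both bounds hold for the main background correction only. With normexp background correction the difference was -0.75, a smaller fold than 1.99. Slc25a22 passed the filter only through the controls, where it is bright, and could therefore only be called lower, so its adjusted p of 0.00219 and its place among the 14 carriers that fell are given as a description. The other glutamate carrier, Slc25a18, was well above background on 0 icKO arrays and 1 control array and was not tested.

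Among carriers of di- and tricarboxylates, the oxoglutarate carrier Slc25a11 fell and the citrate carrier Slc25a1 rose. Slc25a11, which brings in malate in the malate-aspartate shuttle, had 6.88, 6.76 and 6.88 in icKO ventricles, against 7.82, 7.86 and 7.85 in controls. Both groups were tight and far apart, with means of 6.84 ± 0.07 in icKO and 7.84 ± 0.02 in control ventricles (SD, n = 3 each), a difference of -1.004 ± 0.09 (SE) and 0.499 of the control level (adjusted p = 0.000554). Slc25a1 exports citrate, from which the cytosol makes acetyl-CoA for lipid synthesis. It had 0.53, 0.62 and 0.62 in icKO ventricles and -0.23, -0.36 and -0.32 in controls. The means were 0.59 ± 0.05 in icKO and -0.30 ± 0.06 in control ventricles (SD, n = 3 each), a difference of 0.89 ± 0.09 (SE), 1.86 times the control level (adjusted p = 0.000846). Both kept their call under every scaling, at -0.56 for Slc25a11 and 1.34 for Slc25a1 with spike-in scaling. The dicarboxylate carrier Slc25a10 and the related Slc25a34 and Slc25a35 did not pass, with differences of -0.36, -0.69 and -0.65 (adjusted p = 0.322, 0.0528 and 0.0772).

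The ATP-Mg/phosphate carriers, which adjust the matrix pool of adenine nucleotides and are switched by calcium, did not move as a group. Slc25a24 rose: it had 0.35, 0.46 and 0.55 in icKO ventricles, against 0.06, -0.45 and -0.05 in controls, with no overlap and a difference of 0.60 ± 0.15 (SE), 1.52 times the control level (adjusted p = 0.0213). Slc25a23 fell: it had -2.46, -2.27 and -2.27 in icKO ventricles and -2.00, -1.64 and -1.89 in controls, a difference of -0.49 ± 0.13 (SE, adjusted p = 0.0216), which with spike-in scaling was -0.046 (adjusted p = 0.874). The call of Slc25a24 was lost without icKO replicate 2 (adjusted p = 0.0565) or 3 (0.0658), and that of Slc25a23 without icKO replicate 1 (0.0539), control replicate 2 (0.0556) or control replicate 3 (0.0541). With median scaling (0.12), quantile normalization (0.0523), trended and robust eBayes (0.0518) or no filter on dim probes (0.0911) Slc25a23 did not pass either, nor did Slc25a24 with no such filter (0.0835).

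Their within-array gap, Slc25a24 less Slc25a23, was 2.81, 2.73 and 2.82 in icKO ventricles and 2.06, 1.19 and 1.84 in controls. It was wider by 1.09 ± 0.26 (SE) in icKO ventricles, with no overlap and an exact permutation p of 0.1, the smallest the design allows (0.2 over the 6 pairs). Slc25a25 gave 0.69 ± 0.28 (SE, adjusted p = 0.0872) and did not pass, but passed at 0.85 under median scaling (adjusted p = 0.0402) and at 1.14 under spike-in scaling (0.0276). Slc25a41 and Slc25a54 stayed near background throughout. The mean signals of the fibroblast and macrophage markers were higher on the same icKO arrays (values above), and the part of these markers in the Slc25a24 value was not tested.

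**Figure D3:**
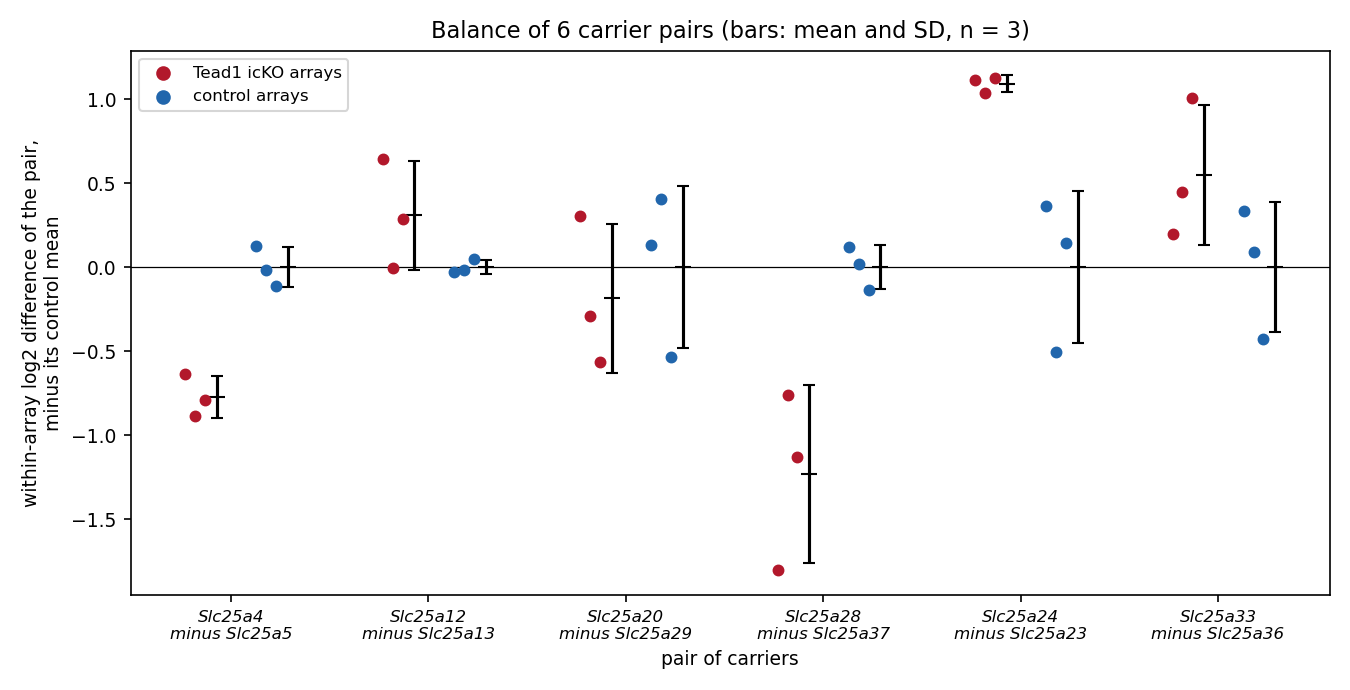
Within-array difference of log2 signals between the members of 6 pairs of related carriers, less its mean over the control arrays, 1 point per array with icKO left of control and bars for the mean and SD (n = 3). The icKO arrays lie apart from the control arrays for Slc25a4 less Slc25a5 (-0.77), Slc25a28 less Slc25a37 (-1.23) and Slc25a24 less Slc25a23 (1.09), and overlap them for Slc25a20 less Slc25a29.

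The largest falls outside these groups were in carriers of cofactors and nucleotides, of which 5 of 9 measured fell and 0 rose, where 28.7% of all features were lower and 16% higher. With median scaling 3 fell and 1 rose, where 16.4% of all features were lower and 19.7% higher. With spike-in scaling 3 fell and 2 rose, where 7.49% of all features were lower and 32.2% higher. Slc25a26 imports S-adenosylmethionine, which donates methyl groups to mitochondrial RNA and protein and is also used in lipoate synthesis. It had 0.27, 1.05 and 0.78 in icKO ventricles, against 2.59, 2.51 and 2.39 in controls. Means were 0.70 ± 0.40 in icKO and 2.50 ± 0.10 in control ventricles (SD, n = 3 each), a difference of -1.80 ± 0.20 (SE), 0.288 of the control level (adjusted p = 0.00128), and a second probe gave -1.50 ± 0.11.

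Slc25a42, which carries coenzyme A into the matrix, had 2.78, 2.95 and 2.69 in icKO ventricles and 4.11, 4.84 and 4.49 in controls. It averaged 2.81 ± 0.13 in icKO and 4.48 ± 0.37 in control ventricles (SD, n = 3 each), a difference of -1.67 ± 0.20 (SE), 0.313 of the control level (adjusted p = 0.00139). For both Slc25a26 and Slc25a42 the icKO arrays lay below the control arrays, and both were called lower under every scaling.

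Of the pyrimidine nucleotide carriers, 1 of 2 passed the test. Slc25a36, a carrier of pyrimidine nucleotides, had 0.74, 0.75 and 0.54 in icKO ventricles and 1.34, 1.05 and 1.39 in controls, a difference of -0.59 ± 0.13 (SE, adjusted p = 0.0121) that did not pass with median (adjusted p = 0.074) or spike-in scaling (0.455) or with no filter on dim probes (0.0579). The other pyrimidine nucleotide carrier, Slc25a33, had 2.80, 3.07 and 3.42 in icKO ventricles and 3.55, 3.02 and 2.84 in controls. These overlap, at -0.037 ± 0.24 (SE, adjusted p = 0.912), and the gap between Slc25a33 and Slc25a36 changed by 0.55 ± 0.33 (SE, exact permutation p = 0.2).

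Slc25a51, which imports NAD+, had 2.54, 2.47 and 2.58 in icKO ventricles and 2.82, 2.74 and 2.93 in controls. Its difference of -0.30 ± 0.10 (SE) passed at an adjusted p of 0.0442, but without any 1 of the 6 arrays it did not (0.0606 to 0.138). A second Slc25a51 probe gave -0.25 (adjusted p = 0.0768) and the mean of both did not pass (0.0528), and with spike-in scaling it was 0.15 (adjusted p = 0.476). Slc25a32 (folate and FAD), Slc25a17 (a peroxisomal carrier of cofactors) and Slc25a16 did not pass, with differences of 0.25, 0.10 and -0.19. Slc25a32 was called higher with median (adjusted p = 0.0434) and spike-in scaling (0.0114), and Slc25a17 with spike-in scaling (0.0324).

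**Figure D4:**
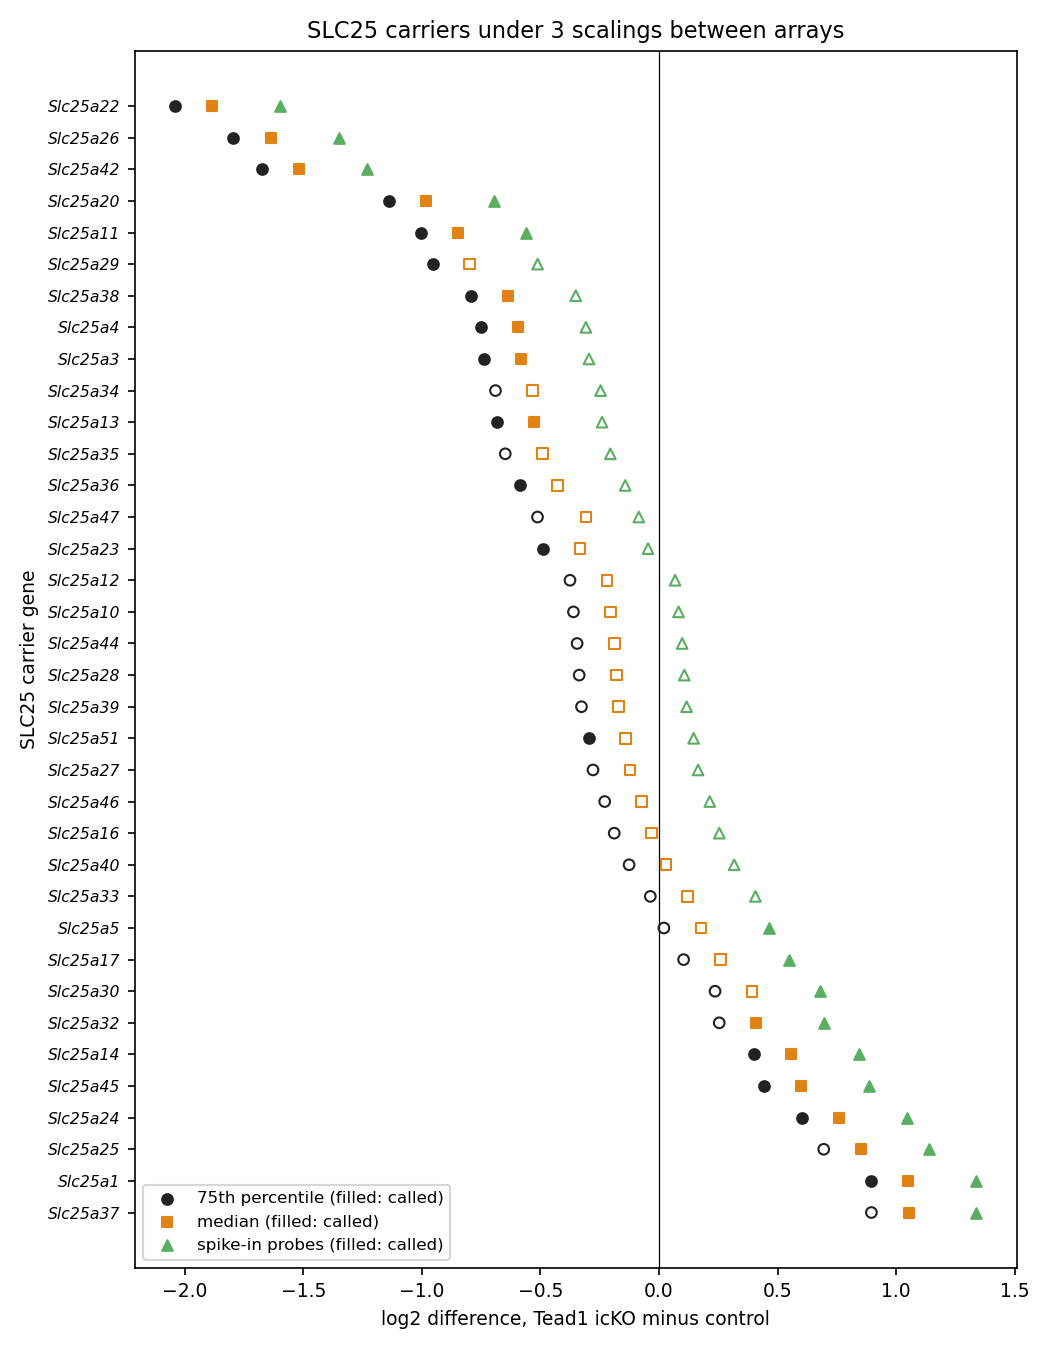
Log2 difference (icKO minus control) of 36 carriers under 75th percentile, median and spike-in scaling, 1 row per carrier, with filled points for differences that passed the adjusted p of 0.05. Spike-in scaling moves the points by 0.44 to the right, and Slc25a26, Slc25a42, Slc25a20 and Slc25a11 remain called lower. Slc25a22 does too, but it passed the filter only through the controls and could only be called lower.

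Of the amino acid carriers, Slc25a38, the glycine carrier needed for the first step of heme synthesis, fell. It had 2.58, 2.40 and 2.54 in icKO ventricles, against 3.30, 3.31 and 3.30 in controls, a difference of -0.79 ± 0.09 (SE), 0.577 of the control level (adjusted p = 0.00135), but -0.35 under spike-in scaling (adjusted p = 0.128). Slc25a44, a carrier of branched-chain amino acids, did not pass with its brightest probe, at -0.35 (adjusted p = 0.205), whereas its other probe was lower, at -0.69 ± 0.14 (SE, adjusted p = 0.00904 over the 26152 probes kept, of which 28.2% were lower and 16.1% higher). The ornithine carriers Slc25a15 and Slc25a2 stayed near background throughout.

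None of the 4 carriers of iron and glutathione passed the limma test with 75th percentile scaling, and Slc25a37 passed with median and spike-in scaling. The mitoferrins bring iron into the matrix for heme and iron-sulfur clusters, Slc25a37 (mitoferrin 1) chiefly in red cell precursors and Slc25a28 (mitoferrin 2) in other tissues. Slc25a37 had 4.72, 3.17 and 3.51 in icKO ventricles and 2.76, 3.01 and 2.94 in controls. All icKO arrays lay above all control arrays, but icKO replicate 1 stood far above the rest, and the difference of 0.90 ± 0.39 (SE) had an adjusted p of 0.103. Without icKO replicate 1 it was 0.43, and without icKO replicate 2 it was 1.21 and passed (adjusted p = 0.0475). Median scaling gave 1.05 (adjusted p = 0.046) and spike-in scaling 1.34 (0.0287). A second Slc25a37 probe gave 0.23 (adjusted p = 0.439). The mean of the 4 erythrocyte and platelet markers measured was highest on icKO replicate 1 too: 5.99, 3.92 and 4.21 in icKO ventricles and 3.79, 3.99 and 3.44 in controls. The groups overlap in this mean, and 1 of the 4 markers, Alas2, was called higher, where 16% of all features were. The part of these markers in the Slc25a37 value was not tested.

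Slc25a28 had 3.10, 2.58 and 2.56 in icKO ventricles and 3.05, 3.21 and 2.98 in controls, which overlap, and its difference of -0.34 ± 0.17 (SE) did not pass (adjusted p = 0.151), though without icKO replicate 1 it did, at -0.51 (adjusted p = 0.0184). Slc25a28 less Slc25a37 changed by -1.23 ± 0.31 (SE), with no overlap and an exact permutation p of 0.1 (0.2 over the 6 pairs). The glutathione carrier Slc25a39 and its relative Slc25a40 did not pass, at -0.33 and -0.13, nor did Slc25a46 of the outer membrane, at -0.23.

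Among carriers related to the uncoupling proteins, Slc25a14 rose. It had 0.68, 0.85 and 0.76 in icKO ventricles, against 0.48, 0.33 and 0.27 in controls, with no overlap and a difference of 0.40 ± 0.10 (SE), 1.32 times the control level (adjusted p = 0.0218). The call was lost without icKO replicate 2 or 3 or control replicate 2 or 3 (adjusted p = 0.0598 to 0.075) and with no filter on dim probes (0.101). Slc25a27 and Slc25a30 did not pass, at -0.28 and 0.24, though under spike-in scaling Slc25a30 passed as higher (adjusted p = 0.0345). Slc25a30 passed the filter only through the icKO arrays, so that call is a description. The uncoupling proteins themselves, which have the same fold but other symbols and are no members, were higher: Ucp2 by 1.42 (adjusted p = 0.00417) and Ucp3 by 1.02 (adjusted p = 0.0155). A second Ucp3 probe had the opposite sign, at -0.61 ± 0.57 (SE), and did not pass (adjusted p = 0.419).

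Enzymes and carriers that work beside the SLC25 family were counted too. Of 24 measured 13 were lower and 4 higher in icKO ventricles, where 28.7% of all features were lower and 16% higher. With spike-in scaling 4 were lower and 5 higher, where 7.49% of all features were lower and 32.2% higher. All 4 enzymes of the malate-aspartate shuttle were lower, with differences of -0.91 for Mdh1, -0.74 for Mdh2, -0.57 for Got1 and -0.66 for Got2 (adjusted p = 0.00118 to 0.0113), next to the fall of Slc25a11 and Slc25a13. With spike-in scaling 1 of the 4, Mdh1, remained called lower.

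Beside Slc25a20 in the carnitine shuttle, Cpt2, which rebuilds acyl-CoA in the matrix, changed by -1.72 (adjusted p = 0.000261), Crat, the carnitine acetyltransferase, by -1.03 (adjusted p = 0.00382) and Cpt1b, the muscle form of the entry enzyme, by -0.37 (adjusted p = 0.0217). Cpt1a, the liver form, gave 0.32 and did not pass (adjusted p = 0.238). Cpt2 was called lower with spike-in scaling too, whereas Crat and Cpt1b were not and Cpt1a was called higher (0.76, adjusted p = 0.0433). Beside Slc25a4, the mitochondrial creatine kinase of muscle, Ckmt2, which receives the exported ATP, changed by -1.42 (adjusted p = 0.000239), and by -0.98 with spike-in scaling (adjusted p = 0.00203). Of the pyruvate carrier's subunits, Mpc2 changed by -1.21 (adjusted p = 0.00054) and Mpc1 by -0.35 (adjusted p = 0.0366), and with spike-in scaling Mpc1 was at 0.088 (adjusted p = 0.702). Of the sideroflexins, a family that includes a serine carrier, Sfxn3 rose by 1.03 (adjusted p = 0.00258) and the other 4 did not pass with their brightest probes, though a dimmer probe of Sfxn2 was lower, at -0.62 (adjusted p = 0.0157).

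Of the 37 carriers tested, 34 were well above background on all 6 arrays. Slc25a22 was tested only because it was bright enough in controls, and Slc25a30 only because it was in icKO ventricles. Slc25a47 passed the filter through the controls alone, with 2 icKO arrays well above background and the spot of icKO replicate 1 flagged as an outlier. The 10 carriers below the filter were Slc25a2, Slc25a15, Slc25a18, Slc25a21, Slc25a31, Slc25a41, Slc25a43, Slc25a48, Slc25a53 and Slc25a54.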

How the data were processed

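Each of the 6 ventricle samples (3 icKO, 3 control) was run on 1 Agilent array with Cy3 as the single dye, per the labels' protocols. The spot intensity values in the deposited scanner files are linear and background-subtracted, with no scaling between arrays, and come from Feature Extraction 11.0.1.1, per the file headers. Version 9.1 is named in the submitters' processing notes. The authors' deposited value table holds intensity too, made by a method not given here.

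Signals were taken as log2 less the 75th percentile of non-control spots on the same array. Outlier-flagged spots were dropped and a probe's spots averaged. Probes well above background on all 3 arrays of a group were kept (26152 of 55681), among them 45 of the 56 SLC25 probes. RefSeq accessions were matched to a GRCm38.p6 table for names. Of a gene's kept probes the brightest stands for it, and 8 carriers had more than 1. An unnamed probe is a feature of its own. Groups were compared with limma 3.58.1 in R 4.3.3 (lmFit and eBayes, group only), tested on simulated data. For a bound, the dim probe was raised on each array to the lowest signal well above background where it lay under it. Within-array gaps were compared by exact permutation over arrays.

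Members, role groups and other lists were chosen with earlier results of these data known. Every array's value is given for carriers of adenine nucleotides, phosphate, acylcarnitine and aspartate/glutamate, for both carriers of each pair, and for up to 6 of the rest in each direction with the largest change past the threshold and groups apart. The others are given by difference where a role group turns on them, and 1 carrier that is counted is not reported here by itself. The alternatives were background correction by normexp (on the median signal, since no mean signal was used here), quantile, median and spike-in scaling, the authors' table, probe filters and choice, outlier spots, eBayes settings, array weights, blocks, and leaving out each array. Spike-in scaling used the 5 spike-in probes with every spot well above background, chosen after their signals were seen. The number of arrays limits the precision.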

Additional observations from a re-analysis of the deposited data

How the results depend on the processing

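The count of 14 carriers lower in icKO ventricles was 6 with spike-in scaling and between 10 and 17 under the other alternatives, with 11 to 15 on leaving out 1 array. The count of 4 higher was 7 with median scaling, 10 with spike-in scaling, 1 with no filter on dim probes (47 carriers tested), 2 with calls of at least 1.5-fold and 2 to 4 on leaving out 1 array (2 without icKO replicate 2, icKO replicate 3 or control replicate 3). Shares of all features called are given above for median, spike-in and quantile scaling. They were not counted under the other alternatives, so the counts there are not read as results about the carriers. The median difference over the carriers, -0.35, was -0.27 with normexp, -0.26 with quantile normalization and with the authors' table, -0.19 with median scaling, -0.41 with array weights, -0.44 with slide row as a block, -0.44 to -0.25 on leaving out 1 array, and 0.10, a change of sign, with spike-in scaling. Spike-in scaling also turned the sign of Slc25a12 (0.068), Slc25a28 (0.11), Slc25a51 (0.15) and Slc25a33 (0.41). Slc25a33, whose groups overlap, was above 0 too with normexp (0.14), quantile normalization (0.027), the authors' table (0.033), median scaling (0.12), array weights (0.16), without icKO replicate 1 (0.11) and without control replicate 1 (0.17). On leaving out 1 array Slc25a33 ran from -0.20 to 0.17 and Slc25a5 from -0.030 (without control replicate 2) to 0.059, with -0.0086 without icKO replicate 3. The gap between Slc25a20 and Slc25a29 ran from -0.45 to 0.018 on leaving out 1 array, above 0 without icKO replicate 3 (0.0060) and without control replicate 2 (0.018). The causes of these moves were not tested, except that median and spike-in scaling add 1 constant to every difference over all 6 arrays. Of the 18 carriers called and given by array, 7 kept their call under every alternative run, among them Slc25a1, Slc25a11, Slc25a20, Slc25a22, Slc25a26 and Slc25a42. Slc25a22, which is near background in icKO ventricles, is not tested where all 6 arrays must be above it. With the main filter, which it passed only through the controls, it could only be called lower, so its kept call is a description.

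Replicate numbers are shared between the groups, but same-numbered arrays did not deviate together (correlations of -0.050, -0.13 and 0.0012). With the replicate number as a block, 14 carriers were lower and 2 higher, and Slc25a14, Slc25a45 and Slc25a51 did not pass (adjusted p = 0.0682, 0.0544 and 0.0881). The share of all features called with this block was not counted. The 6 arrays lay on 1 slide with 1 scan, so a slide block was not run. A mean signal was not used here, so normexp took the median signal and median background. A spot not well above background sets the limit for Slc25a22 and for the 10 carriers that were not tested.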
